A study of Rattus norvegicus with 15 samples.

Results

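Of 7 genes of the hypoxia response and of glycolysis, 6 were found among the 17599 features measured in whole blood of rats with an induced deep venous thrombosis, a clot in a deep vein. The 7 were chosen by Ensembl ID: Hif1a (ENSRNOG00000008292), Slc2a1 (ENSRNOG00000007284), Hk2 (ENSRNOG00000006116), Gapdh (ENSRNOG00000018630), Pkm (ENSRNOG00000011329), Ldha (ENSRNOG00000013009) and Vegfa (ENSRNOG00000019598). The ID of Gapdh has no row in the table, so Gapdh was not analysed here. The symbols come with the gene list, since neither the table nor the RefSeq table used here pairs Ensembl IDs with symbols, and the pairing could not be checked against the data. The blood came from male Sprague-Dawley rats, an outbred stock, 6 to 8 weeks old. The 15 libraries form 5 groups of 3, with Sham at 0 h per the labels and the other rats bled at 1 h, 6 h, 12 h and 72 h after modelling. The sources used here do not give how the clot was made, how the Sham rats were treated or which animal gave which library, so the p-values measure no more than the spread among these 15 samples, and that spread may be technical. The libraries of Sham, 1 h and 72 h share a run label, A&B (9 libraries), while those of 6 h and 12 h have another, C (6 libraries). Any comparison of 6 h or 12 h with the other groups is also one of run labels, and time and run label cannot be told apart in it.

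Hif1a encodes the oxygen-regulated subunit of the transcription factor HIF-1. When oxygen is plentiful, prolyl hydroxylases mark the HIF-1α protein for destruction through the von Hippel-Lindau protein, so that much of its regulation lies at the protein level rather than at the level of its mRNA. In low oxygen the protein persists, pairs with ARNT and binds hypoxia response elements, whose core is ACGTG or GCGTG, at genes such as those for glucose uptake, glycolysis and angiogenesis. Slc2a1 encodes the glucose transporter GLUT1, Hk2 the hexokinase that phosphorylates glucose on entry, Pkm the pyruvate kinase that makes pyruvate at the end of glycolysis, and Ldha the lactate dehydrogenase subunit that favours lactate. Vegfa encodes a secreted growth factor of endothelial cells. White cells and platelets of the blood rely heavily on glycolysis. In bulk blood, fewer cells of a type and less RNA per cell cannot be told apart.

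The promoters of these genes are shown because the core of the hypoxia response element lies just before some gene starts and not others. The 250 bases before each gene start in RefSeq (build GRCr8, which is not the build named for the files) were matched by symbol, for 7 of 7 genes, and searched for ACGTG and GCGTG on both strands, with overlapping matches merged. Either motif was in 36.7% of all 33465 such windows, at least 2 merged matches were in 12.9% and at least 3 in 4.30%. Slc2a1 had 4 merged matches, Ldha and Gapdh 3 each and Hif1a 2, while the windows of Hk2 and Pkm and both windows of Vegfa had 0. Capitals mark the matches in the stretches below, written 5′ to 3′ on the strand of the gene, the plus strand in each case. The Ldha stretch, chr1:106507990-106508038, holds 2 matches within a short span, and the Slc2a1 stretch, chr5:138002431-138002521, holds 3; other matches are not printed. The Hif1a stretch, chr6:98359654-98359689, holds 1 merged match. A match describes letters only and does not show binding, and 0 matches says nothing of sequence outside the 250 bases.
Ldha: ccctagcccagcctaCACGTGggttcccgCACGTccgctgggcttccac
Slc2a1: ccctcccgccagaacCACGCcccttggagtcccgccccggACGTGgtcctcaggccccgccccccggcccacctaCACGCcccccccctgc
Hif1a: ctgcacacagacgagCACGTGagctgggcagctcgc

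The values below are normalised read counts, reads per feature that the authors divided by a factor for each library. The whole reads recovered from them came to 29.2 to 43.3 M (mega-reads) in a library. Only 4.67 to 7.65 M of them fell on features other than the 5 most abundant. The factor was lowest in 12 h replicate 2 (0.584) and highest in 12 h replicate 3 (2.67), so the 12 h group holds both extremes. Some values of each gene are therefore also given as RPM (reads per mega-read) outside those 5 features. Markers of blood cell types could not be looked up, because no table pairs their symbols with the IDs, so the labelled tissue was not checked against its markers. Levels of different genes are not compared, since transcript lengths were not used.

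None of the 5 genes that could be tested passed the threshold (limma adjusted p under 0.05 over 11117 features) in any of the 4 comparisons with Sham. The share of all tested features that passed was 0.135% (1 h), 0.486% (6 h), 0.0720% (12 h) and 0.00% (72 h), so 0 of 5 is close to that background. That background rests on 12 h replicate 3: without it the shares were 0.909% (1 h), 6.77% (6 h), 13.9% (12 h) and 0.135% (72 h), and still 0 of the 5 genes passed. At an unadjusted p under 0.05 the count was 1 of 5 at 1 h (Slc2a1, against 7.29% of all features), 1 of 5 at 6 h (Pkm, against 17.1%) and 0 of 5 at 12 h and at 72 h (13.1% and 7.25% of all features). edgeR on the recovered reads also called 0 of the 5 at each of the 4 times, beside 0.00% (1 h), 0.495% (6 h), 0.0540% (12 h) and 0.00% (72 h) of all features. DESeq2 called 0 of the 5 as well, beside 0.770% (1 h), 6.91% (6 h), 3.46% (12 h) and 0.254% (72 h) of all features. The 4 comparisons share the Sham libraries. The log2 differences from Sham of the 5 genes had medians of -0.16 (1 h), 0.23 (6 h), 0.086 (12 h) and -0.38 (72 h), beside 0.023, -0.042, -0.058 and -0.052 over all features tested. At 72 h all 5 lay below Sham on average. Only 46.3% of all features lay above Sham at that time, so below was the commoner side. Within groups Hif1a, Slc2a1 and Hk2 varied together (Pearson's r of deviations from group means 0.60 to 0.72), as did Pkm and Ldha (0.67). The 5 genes thus do not give 5 independent signs. The intervals of these differences are wide. They leave room for changes of about 2 log2 units or more in some genes, down to -2.63 for Slc2a1 at 1 h.

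**Figure D1:**
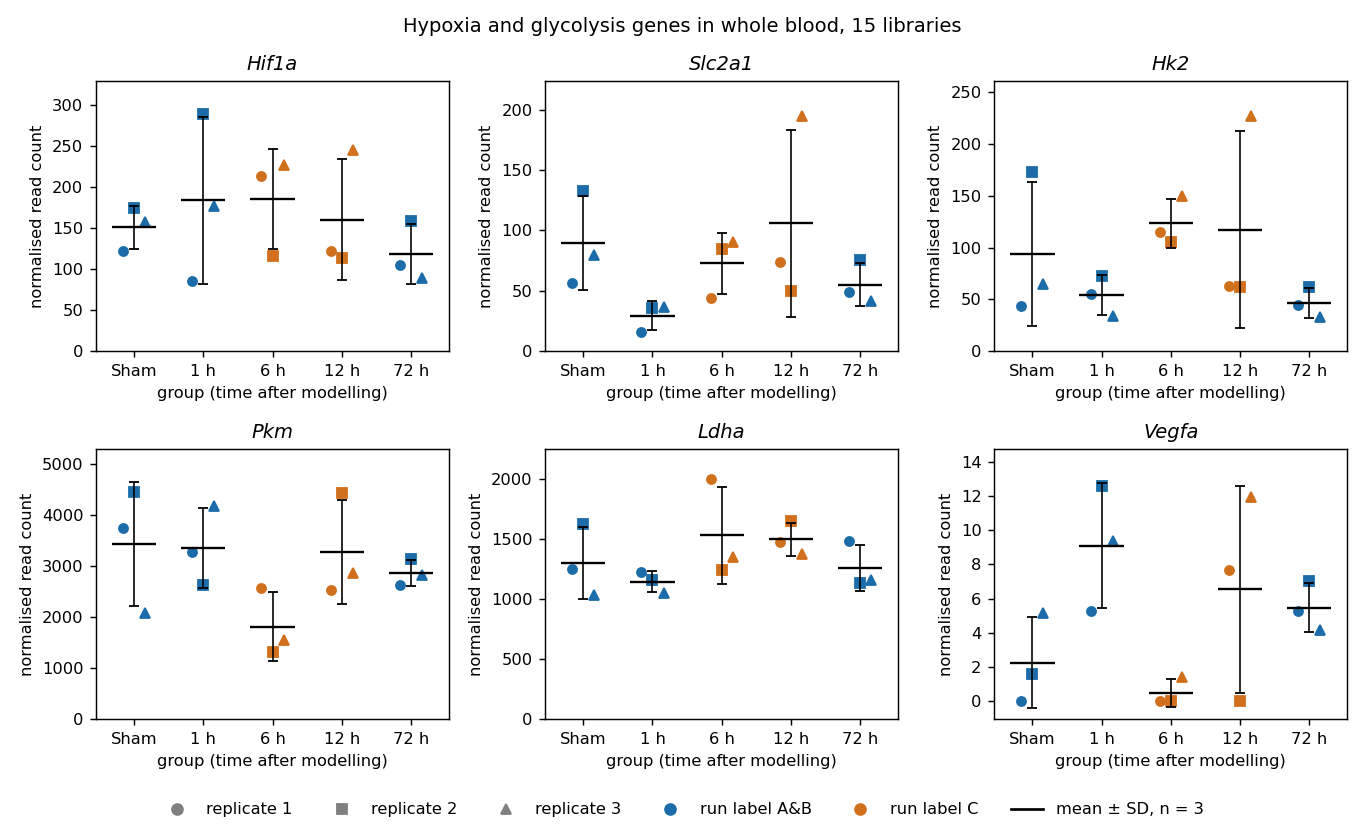
Normalised read count (vertical axes, linear) of the 6 measured genes in each library, by group. Symbols are replicates, colours the run labels, bars the mean and SD of 3 libraries. Slc2a1 at 1 h (15.9 to 36.6) sits below Sham (56.8 to 133), and Vegfa stays at or below 12.6 in every library.

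Slc2a1, the GLUT1 glucose transporter, was low at 1 h. Its normalised read count was 56.8, 133 and 79.5 in Sham replicates 1 to 3, 15.9, 35.9 and 36.6 at 1 h, 43.9, 84.7 and 90.1 at 6 h, 74.2, 49.7 and 194 at 12 h, and 48.7, 75.8 and 41.3 at 72 h. Each library of 1 h was below each Sham library, as for 11.3% of the features tested. They were also below each library of 72 h, as for 7.95% of features in that comparison. The group averaged 29.5 ± 11.8 at 1 h and 89.7 ± 39.0 in Sham (SD, n = 3 each). The log2 difference of 1 h from Sham was -1.58 (SE 0.50, 95% interval -2.63 to -0.53), with a limma adjusted p of 0.360, and it ranked 173 of 11117 features by p. Leaving out single libraries gave -1.86 to -1.20 for it, and adjusted p-values over 29 alternatives ran from 0.0878, without 12 h replicate 3, to 0.962.

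The reads behind Slc2a1 were few: 12, 37 and 39 at 1 h, against 57, 170 and 123 in Sham. The 12 reads have an exact Poisson interval of 6.20 to 21.0, which covers counting error only. As RPM outside the 5 dominant features the levels were 2.24, 7.25 and 7.29 at 1 h, against 11.5, 30.1 and 24.7 in Sham, so the groups were apart on that scale too, as were 19.6% of features in the same direction. At 72 h the RPM values were 7.92, 20.0 and 6.35, which overlap those of 1 h. The separation of 72 h from 1 h in normalised read counts was thus not seen on that scale. The library factor was also lower at 1 h (0.755 to 1.06) than in Sham (1.00 to 1.55). With the log2 factor as a covariate, the log2 difference was -1.20 and the limma adjusted p 0.126, beside 0.423% of features called. The moderated F test over Sham, 1 h and 72 h, which share a run label, gave Slc2a1 an unadjusted p of 0.0187 (8.87% of features were under 0.05) and a limma adjusted p of 0.432, with 0.00900% of features called. Between 72 h and 1 h the log2 difference was 0.93 (SE 0.50, limma adjusted p = 0.621). By mean normalised read count the order was 12 h, Sham, 6 h, 72 h and 1 h. Only the last neighbours, 72 h and 1 h, had ranges that did not overlap on that scale. The first place of 12 h rests on replicate 3 (194). Replicates 1 and 2 of that time (74.2 and 49.7) lay below the Sham mean of 89.7.

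By normalised read count, but not as RPM, Hk2, the hexokinase that traps glucose in the cell, was high and tight at 6 h. It was scattered in Sham and at 12 h. Its normalised read count was 43.9, 173 and 64.7 in Sham, 55.6, 72.7 and 33.8 at 1 h, 115, 105 and 149 at 6 h, 62.7, 61.7 and 227 at 12 h, and 44.7, 61.8 and 33.0 at 72 h. All 3 libraries at 6 h lay above every library of 1 h and 72 h, as did 3.53% of features, and they overlapped Sham through Sham replicate 2. The mean was 123 ± 23.3 at 6 h and 93.7 ± 69.1 in Sham (SD, n = 3 each). the log2 difference from Sham was 0.62 at 6 h (SE 0.52, limma adjusted p = 0.581) and -0.80 at 72 h (SE 0.52, limma adjusted p = 0.759). The library of 12 h with 227 is replicate 3, which has the largest library factor. Its 606 reads stand beside 49 and 36 in the other libraries of that time. The log2 difference of 12 h from Sham was 0.28 (limma adjusted p = 0.849) with that library and -0.34 (limma adjusted p = 0.656) without it. For Slc2a1, at 194 in the same library, it was 0.086 (limma adjusted p = 0.955) with it and -0.47 (limma adjusted p = 0.515) without it. By mean normalised read count the order was 6 h, 12 h, Sham, 1 h and 72 h, and no neighbours had separate ranges.

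**Figure D2:**
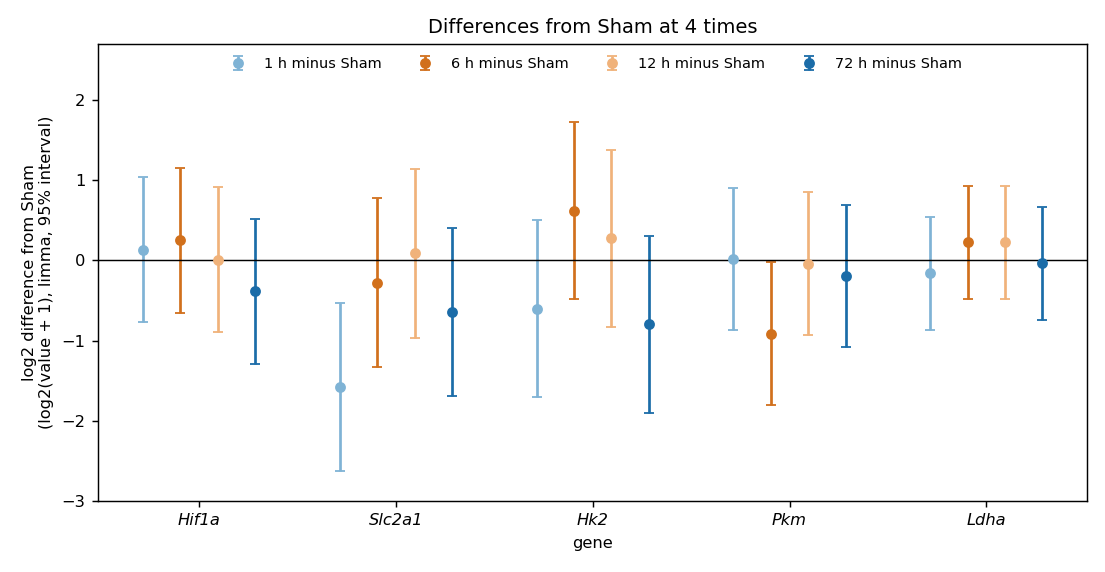
Log2 difference of each time from Sham, on the scale log2(value + 1), for the 5 genes tested; points are limma estimates and bars their 95% intervals, from 3 libraries a group. The interval leaves out 0 for Slc2a1 at 1 h (-2.63 to -0.53) and for Pkm at 6 h (-1.80 to -0.03), and neither passed after adjustment over all features.

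Pkm, the pyruvate kinase of the last step of glycolysis, had its lowest mean at 6 h. Its normalised read count was 3753, 4452 and 2092 in Sham, 3278, 2624 and 4192 at 1 h, 2581, 1309 and 1545 at 6 h, 2532, 4432 and 2863 at 12 h, and 2631, 3141 and 2828 at 72 h. Every library at 6 h lay below every library at 1 h and at 72 h, as did 3.32% of features, and the group overlapped Sham and 12 h by a single library on each side. The mean was 1812 ± 676 at 6 h and 3432 ± 1212 in Sham (SD, n = 3 each). The log2 difference of 6 h from Sham was -0.91 (SE 0.42, 95% interval -1.80 to -0.03, limma adjusted p = 0.276), and that of 12 h from 6 h, within run label C, was 0.87 (SE 0.42, 95% interval -0.01 to 1.76, limma adjusted p = 0.990). By group mean the order was Sham, 1 h, 12 h, 72 h and 6 h, and of the neighbours only 72 h and 6 h had separate ranges.

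Pkm had 1160 to 7655 reads in a library, so counting error is small beside the spread between libraries. As RPM outside the dominant features the 6 h libraries held 331, 154 and 330.3, against 758, 1009 and 650.3 in Sham, without overlap, as for 26.6% of features in that direction. On that scale the log2 difference was -1.63 (limma adjusted p = 0.0846), where the median of all features was -0.73. The lowest of the other 12 libraries, 12 h replicate 1, held 332 RPM, so Pkm was lower at 6 h than in any other library by a narrow margin. This was so for 0.441% of features. The comparisons of 6 h with several groups at once, here and for Hk2, Vegfa and the ratios, were made after the values were seen. Adjusted p-values of Pkm at 6 h over the alternatives ran from 0.0584, with the library factor as a covariate, to 0.612. Reads from near-identical copies of Pkm or Ldha elsewhere in the genome cannot be told apart from their own, as the sources used here do not give the counting rule.

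Ldha, which makes lactate from pyruvate, was the steadiest of the 6 genes, with a highest value 1.93 times its lowest over the 15 libraries. Its normalised read count was 1247, 1622 and 1032 in Sham, 1226, 1155 and 1049 at 1 h, 1993, 1244 and 1347 at 6 h, 1473, 1645 and 1370.2 at 12 h, and 1478, 1132 and 1157 at 72 h. The groups overlapped Sham at all 4 times. The log2 difference from Sham was -0.16 (1 h), 0.23 (6 h), 0.22 (12 h) and -0.036 (72 h), with an SE of 0.33 each and limma adjusted p-values from 0.774 to 0.992. The 95% interval at 6 h ran from -0.48 to 0.93. By group mean the order was 6 h, 12 h, Sham, 72 h and 1 h, with no separate ranges between neighbours. As RPM outside the dominant features Ldha was lower at 1 h (173, 234 and 209) than in Sham (252, 367 and 321) without overlap, as were 19.6% of features on that scale.

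Hif1a itself did not separate any group from Sham. Its normalised read count was 123, 174 and 157 in Sham, 86.1, 289 and 177 at 1 h, 214, 116 and 227 at 6 h, 123, 113 and 246 at 12 h, and 105, 159 and 89.5 at 72 h. The widest scatter was at 1 h, where the highest library was 3.36 times the lowest. the log2 difference from Sham was 0.13 (1 h), 0.25 (6 h), 0.0083 (12 h) and -0.38 (72 h), with an SE of 0.43 each and limma adjusted p-values from 0.812 to 0.998. The interval at 6 h ran from -0.66 to 1.15 and that at 72 h from -1.29 to 0.52. No neighbouring groups in the order of means (6 h, 1 h, 12 h, Sham, 72 h) had separate ranges.

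Vegfa, the endothelial growth factor and a classic HIF-1 target, was close to the limit of detection. It had 95 reads over all 15 libraries and 0 reads in 4 of them, and it did not reach the minimum of 10 in 3 libraries, so it is not among the 5 genes tested. Its normalised read count was 0, 1.56 and 5.17 in Sham, 5.30, 12.6 and 9.39 at 1 h, 0, 0 and 1.43 at 6 h, 7.67, 0 and 12.0 at 12 h, and 5.26, 7.0 and 4.13 at 72 h. A count of 0 allows up to 3 reads, which is a value of 2.99 in Sham replicate 1, 4.11 and 3.39 in 6 h replicates 1 and 2 and 5.14 in 12 h replicate 2. The 1 h libraries held 4, 13 and 10 reads, against 0, 2 and 8 in Sham, and their values were apart by a small margin, as for 9.60% of the features tested. As RPM outside the dominant features the groups overlapped, with 0.748, 2.55 and 1.87 at 1 h, against 0, 0.354 and 1.61 in Sham. With no filter on low values the log2 difference of 1 h from Sham was 1.94 (SE 0.95, limma adjusted p = 0.782 over 17599 features). The order of means was 1 h, 12 h, 72 h, Sham and 6 h, again with overlapping neighbours. All 3 libraries at 6 h, with 2 reads in all, lay below every library of 1 h and 72 h, as did 3.32% of the features tested. This held as RPM too. The exact Poisson intervals of 6 h replicate 3 (0.242 to 7.22 reads) and 72 h replicate 3 (0.619 to 8.77 reads) overlap. For the mean of 6 h and 12 h against that of 1 h and 72 h the log2 difference was -1.62 (SE 0.67, limma adjusted p = 0.325, no filter). At this depth no comparison of Vegfa passed in limma.

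In the ratio of any of these genes to Pkm in the same library the division by the library factor cancels, though the levels of the genes may still follow the factor to different degrees. Pkm stands in as the denominator because Gapdh, which had been planned, has no row. The ratio of Ldha to Pkm was highest at 6 h. It was 0.332, 0.364 and 0.494 in Sham, 0.374, 0.440 and 0.250 at 1 h, 0.772, 0.950 and 0.872 at 6 h, 0.582, 0.371 and 0.479 at 12 h, and 0.562, 0.360 and 0.409 at 72 h. Each 6 h library was above each of the other 12. Of the other features tested, 7.54% also had their highest ratios to Pkm in the 6 h libraries. The low Pkm at 6 h enters all these ratios alike. The log2 ratio at 12 h minus that at 6 h was -0.88, within run label C, and the two-sided exact permutation test gave p = 0.1, the smallest that 3 against 3 libraries allow. Against Sham the log2 ratio at 6 h was 1.14 higher, and run label and time cannot be told apart there.

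The ratios of Hk2 and Hif1a to Pkm at 6 h also lay above all Sham libraries, as did 30.5% of features. For Hk2 the ratio was 0.0446, 0.0802 and 0.0968 at 6 h, against 0.0117, 0.0388 and 0.0309 in Sham. For Hif1a it was 0.0829, 0.0888 and 0.147 at 6 h, against 0.0327, 0.0391 and 0.0751 in Sham. The ratio of Slc2a1 to Pkm was 0.00485, 0.0137 and 0.00874 at 1 h, against 0.0151, 0.0298 and 0.0380 in Sham and 0.0185, 0.0241 and 0.0146 at 72 h. All 1 h values were below both of these groups, as for 5.07% of features against Sham and 10.1% against 72 h. Across the libraries of Sham, 1 h and 72 h the exact permutation test gave p = 0.0286 for Slc2a1, where the smallest possible is 0.00357, and 0.543 to 0.904 for the other 3 genes. It is the only one of 8 such tests under 0.05, and these p-values are not adjusted. The test has no term for the library factor, which was lower at 1 h than in Sham, and its part in the result was not tested. Leaving out 1 library at a time, the exact p stayed under 0.05 without Sham replicate 1 or 1 h replicate 2 and was 0.05 to 0.121 without any of the other 7.

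**Figure D3:**
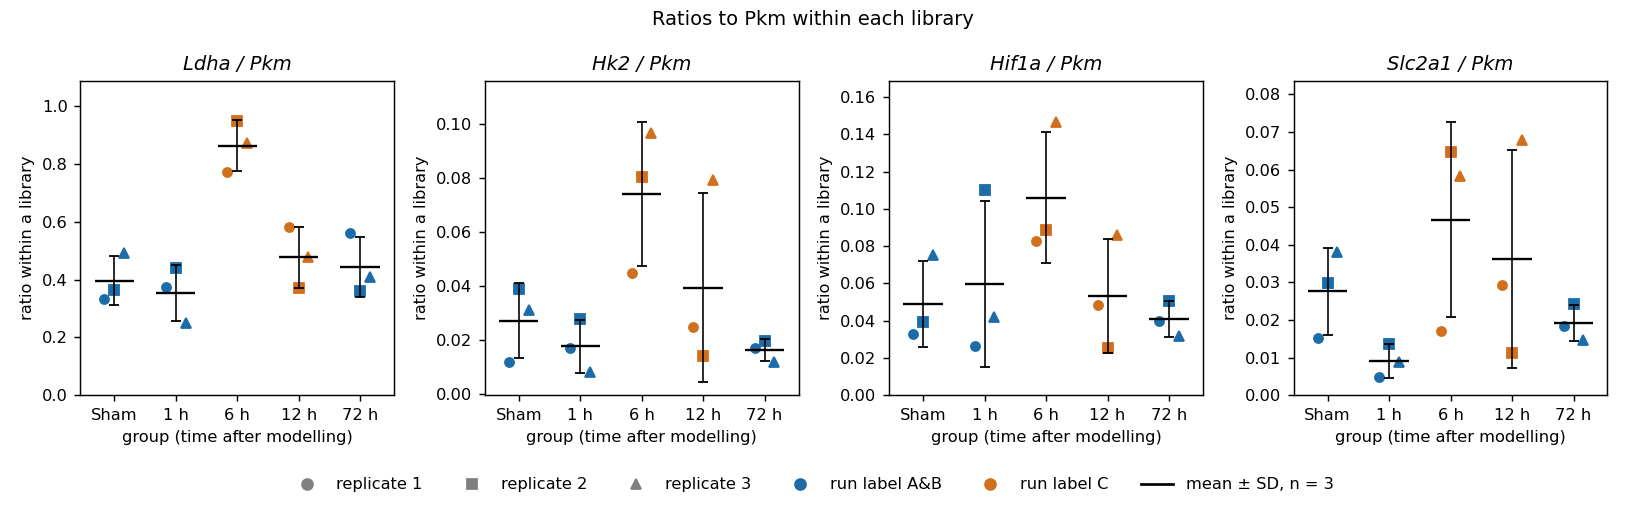
Ratio of 4 genes to Pkm within each library (vertical axes, linear, no unit), by group. Symbols are replicates, colours the run labels, bars the mean and SD of 3 libraries. The 3 libraries at 6 h have Ldha to Pkm ratios of 0.772 to 0.950, above the 0.250 to 0.582 of all other libraries.

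Hk2 and Slc2a1 had higher means over the 6 libraries of 6 h and 12 h than over the 6 of 1 h and 72 h, a contrast that run label shares in full, and neither passed in limma. The log2 difference was 1.15 for Hk2 (SE 0.37, 95% interval 0.37 to 1.93, limma adjusted p = 0.123) and 1.02 for Slc2a1 (SE 0.35, 95% interval 0.28 to 1.76, limma adjusted p = 0.151). None of the 5 genes passed, where 1.84% of all features did, and 2 of 5 had an unadjusted p under 0.05, where 16.6% of all features did. Both passed when the log2 factor was a covariate, at 1.07 for Hk2 (limma adjusted p = 0.0170) and 0.93 for Slc2a1 (limma adjusted p = 0.00993), a fit in which 13.2% of all features passed. DESeq2 called Hk2 alone among the 5, at 1.26 (adjusted p = 0.0498), beside 4.97% of all features, and edgeR called 0 of the 5, beside 1.78%. Adjusted p-values over 27 alternatives ran from 0.0170 to 0.584 for Hk2 and from 0.00993 to 0.646 for Slc2a1, and without 12 h replicate 3 the log2 differences were 0.84 and 0.74, neither passed and 8.60% of all features did. The other 3 genes had differences from -0.39 (Pkm) to 0.32 (Ldha). Within run label C, 12 h against 6 h gave no call among the 5 genes in limma (lowest adjusted p 0.990), beside 0.00% of all features. At an unadjusted p under 0.05 the count was 0 of 5, against 3.80% of all features. Between 72 h and 1 h none of the 5 passed in limma either (0.0180% of all features), and 0 of 5 had an unadjusted p under 0.05 (9.01% of all features). edgeR and DESeq2 also called 0 of the 5 in both comparisons. The shares of all features were 0.00% (edgeR) and 0.135% (DESeq2) for 12 h against 6 h, and 0.00900% and 0.622% for 72 h against 1 h.

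Part of the spread of 3 of the genes between libraries of a group went with the library factor. In a limma fit with group as a term, the slope of log2(value + 1) on the log2 factor was 0.89 for Slc2a1 (SE 0.19, adjusted p = 0.00134), 0.77 for Hk2 (SE 0.23, adjusted p = 0.0172) and 0.61 for Hif1a (SE 0.18, adjusted p = 0.0162). For Pkm it was -0.19 (SE 0.17, adjusted p = 0.398) and for Ldha -0.17 (SE 0.12, adjusted p = 0.273). Of all features tested, 33.7% passed and 15.1% had a positive slope that passed. Since each value is a read count over that factor, a slope is in part set by construction. The division by itself acts towards a lower slope, and the factor was recovered from these same values. All 5 genes had positive slopes that passed when libraries were set to equal totals outside the dominant features, where 66.4% of all features passed. The calls rest on 12 h replicate 3: without it the slopes were 0.97, 0.51 and 0.74 for Slc2a1, Hk2 and Hif1a and none passed (limma adjusted p 0.0520, 0.395 and 0.124), and 11.7% of all features did. The replicate number as a block, another term in the fit, moved Hif1a to an adjusted p of 0.0635.

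**Figure D4:**
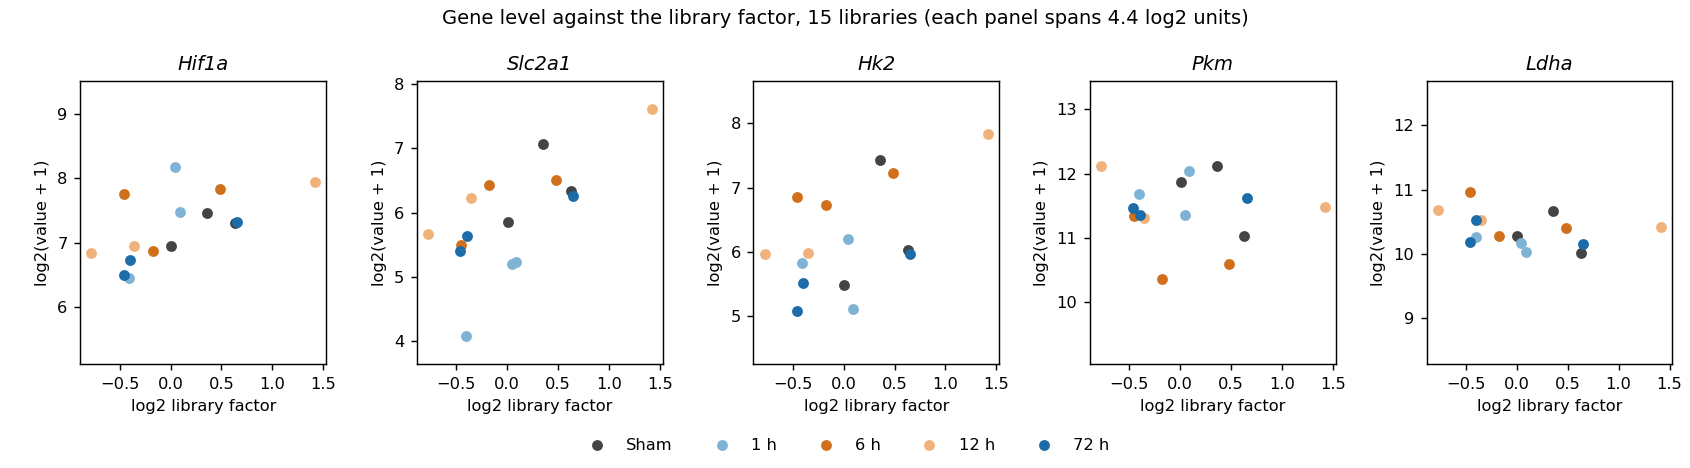
Level of each of the 5 tested genes, log2(value + 1), against the log2 library factor in the 15 libraries, coloured by group; each panel spans the same range of log2 units. Slc2a1, Hk2 and Hif1a slope upward and Pkm and Ldha do not, and 12 h replicate 3 is the point at the far right.

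The annotated feature whose level was most like that of Hif1a over the 15 libraries was ENSRNOG00000024336 (Pearson's r = 0.890), and for Ldha it was ENSRNOG00000005841 (r = 0.852). Each was the highest among 8917 annotated features compared, so such values are high by selection, and no name is given because no table pairs these IDs with symbols. Symbol lists for the HIF system, other HIF targets, other glycolytic enzymes and blood cell markers could not be tested for the same reason.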

How the data were processed

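Messenger RNA of whole blood was collected in PAXgene tubes and sequenced as pairs of 150 bp, per the labels' protocols. The submitters' processing notes name Bowtie 0.12.2 and Rnor_6.0, with no role. The sources used here do not give the counting tool or strand setting. The deposited values are a signal, reads per feature that the authors divided by a factor per library, as worked out from the values. Each is a whole multiple of a step (100% within 0.01 of a whole number), and the factors match a median-of-ratios calculation. For Sham replicate 1, whose step is close to 1, this recovery is tested less well.

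The 11117 features that reached 10 in 3 or more libraries were tested with limma 3.58.1 (trend, robust; R 4.3.3) on log2(value + 1), two-sided, all 15 libraries in 1 fit, with Benjamini-Hochberg adjustment over all features and a threshold of 0.05. Fold changes on this scale understate changes of low genes. edgeR 4.0.16 and DESeq2 1.42.0 ran on the recovered reads. The fits were also run on simulated data without a slope on the library factor or an effect of run label. That run does not show how the fits do where these are present, and no result is drawn from it here. Ratios to Pkm replaced the planned ratios to Gapdh and were tested by exact permutation over libraries. Other alternatives were a replicate block, each library left out, other filters, pseudocounts, scalings and subsets of libraries. All same-numbered libraries had correlations of deviations over 0.1 for 12 h with 6 h (0.132, 0.147 and 0.448) and for no other 2 groups, and the numbers are not stated to mark shared animals. All 7 members were named; the other named features are the closest match to Hif1a and to Ldha by Pearson's r. The members, lists and tests were chosen with earlier results of these data known. A sequence stretch withheld for evaluation is not reported here.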

Additional observations from a re-analysis of the deposited data

How the results depend on the processing

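No member was called in a comparison between groups under any alternative, except in the mean of the run label C times against that of 1 h and 72 h, with 1 call in DESeq2 and 2 with the library factor as a covariate. The slope on the library factor gave 3 calls as reported, 5 with equal totals outside the dominant features, and 0 to 3 leaving out each library in turn. The ratio to Pkm over Sham, 1 h and 72 h had 1 test under 0.05 as reported and 0 to 1 leaving out each library.

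Some uncalled log2 differences changed sign (53 of the values recomputed), the largest of them 0.62 as reported; none of them was called as reported. With equal totals outside the dominant features, where the median of all features moved to -0.40, -0.73 and -0.54 from Sham at 1 h, 6 h and 12 h, Hif1a gave -0.31, -0.46 and -0.50 at these times. On that scale Pkm gave -0.43 at 1 h, Hk2 -0.088 and -0.23 and Ldha -0.49 and -0.29 at 6 h and 12 h, Slc2a1 -0.42 at 12 h, Ldha 0.20 for 12 h against 6 h, and the slopes were 0.62 for Ldha and 0.60 for Pkm. Quantile normalization gave Pkm -0.48 at 1 h, Ldha -0.27 and -0.11 at 6 h and 12 h, Hif1a -0.045 at 12 h and Ldha 0.15 for 12 h against 6 h. TMM scaling gave -0.033 for Hif1a at 12 h, -0.031 for Pkm at 1 h and 0.015 for Ldha at 12 h against 6 h. For Pkm at 1 h edgeR gave -0.070, DESeq2 -0.028 and the covariate fit -0.065. The covariate fit gave 0.060 for Slc2a1 at 6 h and 0.022 for Ldha at 12 h against 6 h, and edgeR gave 0.0062 for Hk2 in that comparison.

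Leaving out each library, log2 differences from Sham that changed sign ran from -0.28 to 0.59 (Hif1a, 1 h), -0.34 to 0.21 (Hif1a, 12 h), -0.34 to 0.84 (Hk2, 12 h), -0.32 to 0.0082 (Ldha, 1 h), -0.19 to 0.14 (Ldha, 72 h), -0.31 to 0.24 (Pkm, 1 h), -0.36 to 0.18 (Pkm, 12 h), -0.52 to 0.029 (Pkm, 72 h), -0.56 to 0.049 (Slc2a1, 6 h) and -0.47 to 0.51 (Slc2a1, 12 h). For 72 h against 1 h Hk2 ran from -0.49 to 0.053, and for 12 h against 6 h Ldha ran from -0.14 to 0.20 and Slc2a1 from -0.19 to 0.78. The cause of these changes was not tested.

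With the replicate number as a block, 0 members were called in each of the 7 comparisons of groups, as without it, and the block ended the call of Hif1a on the library factor (slope 0.63, limma adjusted p = 0.0635). No value could be given for the ratio to Gapdh. The lowest counts behind a member were 0 reads in 4 libraries for Vegfa and, among the genes tested, 12 reads in 1 library for Slc2a1.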
